A study of Sus scrofa with 12 samples.

Results

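XDH, the gene of xanthine dehydrogenase, was measured by 1 probe set (15272073) of the 27558 on the array, the only one that the platform annotation lists under this symbol; 12362 genes are named there in all. XDH was chosen by its own log2 values over these arrays, which had been seen to differ widely between the regions, so its levels are given as a description, without a test. XDH lies on pig chromosome 3 in RefSeq (Sscrofa11.1 assembly). RNA came from the left ventricle of female pigs aged 13 months, in 12 arrays, 3 for each combination of region (free wall or septum) and treatment (paced or control). Paced pigs (EXP in the labels) had complete atrioventricular block made with an ablation catheter and a pacemaker in VDD mode, in which ventricular pacing follows sensed atrial beats, while control pigs (CTL) were a sham group without it. According to the labels' protocol the ventricular lead lay on the right ventricular septum and the atrial lead in the right atrial appendage in all pigs, and tissue was taken after 6 months. The series enrolled 12 pigs, 6 per treatment, and speaks of paired tissues, but which arrays share an animal is not stated in them.

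Xanthine dehydrogenase carries out the last steps of purine breakdown in most tissues: it turns hypoxanthine into xanthine and xanthine into urate. The enzyme holds a molybdenum cofactor, iron-sulfur clusters and FAD, and passes its electrons to NAD. It can be converted to an oxidase form that passes them to oxygen and so makes superoxide and hydrogen peroxide, for which it has been studied in ischaemic and failing hearts. In heart muscle the protein has been found mainly in the endothelium of small vessels, at levels that vary widely between species. In the lactating mammary gland the same protein is abundant, is raised by lactogenic hormones and lines the milk fat globule.

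Median log2 values of the arrays were 4.3 to 4.45. One library, free wall paced 2, was far from the rest in the first principal component (-45.3, against -19.2 to 22.3) and received a weight of 0.24 from limma, the lowest of the 12. In the second component the control arrays numbered 1 of free wall (27.2) and septum (24.3) were apart from the remaining 10 (-16.3 to 7.7). The 7 tested cardiomyocyte markers, of 10 listed, had a summed signal of 14.61 to 14.75 (log2 of the sum of their linear values) in every array, so the labelled muscle carried its defining transcripts. The RNA is from whole tissue, where fewer cells of a type and less RNA per cell cannot be told apart.

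XDH signal was high in the septum and low and scattered in the free wall. Septum paced arrays 1, 2 and 3 read 8.4, 7.73 and 8.35 on the log2 RMA scale, a mean of 8.16 ± 0.37 (SD, n = 3). Septum control arrays read 8.42, 7.7 and 6.12, a mean of 7.41 ± 1.18 (SD, n = 3). All 6 septum arrays were thus at 6.12 or above. Free wall control arrays read 7.77, 5.51 and 3.48, a mean of 5.59 ± 2.15 (SD, n = 3), so a single group spanned 4.29 of the 4.94 log2 units between the lowest and the highest array. Free wall paced arrays read 3.75, 4.95 and 5.37, a mean of 4.69 ± 0.84 (SD, n = 3). The lowest free wall values were close to the dim end of the array: the 25th percentile of all probe sets lay between 2.91 and 3.13, and XDH exceeded it by 0.51 in free wall control array 3 and by 0.82 in free wall paced array 1. Where such a signal is background, a fold against it understates the difference.

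**Figure D1:**
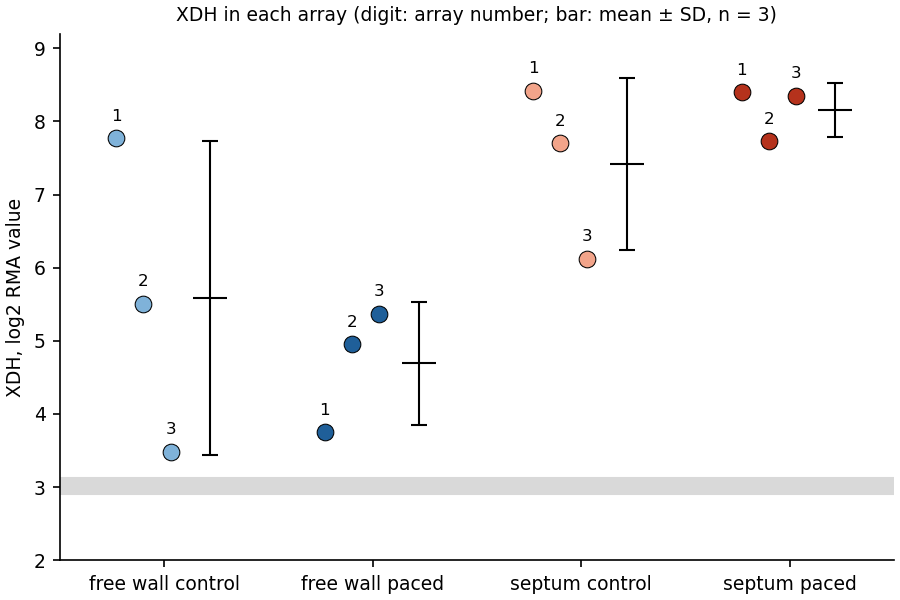
XDH log2 RMA value (vertical axis) in each of the 12 arrays by group; digits are array numbers, bars are the mean ± SD of 3 arrays, and the grey band is the range of the arrays' 25th percentiles (2.91 to 3.13). The septum arrays lie between 6.12 and 8.42, and the free wall arrays between 3.48 and 7.77, with free wall control array 1 the only one of its region above 5.51.

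In descending order the group means were septum paced, septum control, free wall control and free wall paced. Neighbours in this order overlapped in their single arrays and differed by less than the larger of their SDs: 8.16 against 7.41, 7.41 against 5.59, and 5.59 against 4.69. The groups that did not overlap were septum paced and septum control, each against free wall paced, whose highest array was 5.37. Septum paced and free wall control did overlap, through free wall control array 1 at 7.77.

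The first question of the design was how the regions differ. In paced pigs XDH was 11.1-fold higher in septum than in free wall (log2 difference 3.47, moderated SE 0.89, n = 3 per group), and all 3 septum arrays lay above all 3 free wall arrays. A like separation with septum higher was found at 6.44% of the 20669 probe sets tested. In control pigs the difference was 3.55-fold (log2 1.83, SE 0.89), and the groups overlapped (7.33% of probe sets did separate with septum higher). Over both treatments the septum was 6.27-fold higher (log2 2.65, SE 0.63), and no other probe set tested had a larger regional difference in paced pigs or over both treatments (0 of 20669 each). In control pigs 1 probe set had a larger one. XDH was chosen with its wide regional difference known, so these ranks follow in part from the choice. Those SEs come from limma, which pulls the variance of each probe set towards that of the others. From the spread of XDH alone, a pooled within-group SD of 1.31, the SE would be 1.07 for a comparison of 2 groups and 0.75 over both treatments.

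Same-numbered septum and free wall arrays, which may or may not share a pig, differed in one direction throughout. In control pigs the septum array exceeded the free wall array by 0.65, 2.19 and 2.64 on the log2 scale for numbers 1, 2 and 3. In paced pigs the differences were 4.65, 2.78 and 2.98. The control differences were thus all smaller than the paced ones. Within control pigs both regions also kept the same order of the numbers, with array 1 highest and array 3 lowest in free wall and septum alike; the arrays of paced pigs did not keep one order.

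The regional difference in control pigs rested on few arrays. Against 1.83 with all arrays, it was 0.77 once free wall control array 3 was left out, and 2.92 once array 1 of that group was. In paced pigs it ranged from 3.0 to 3.81 when any 1 array was left out, and was 3.60 without the array that stood apart, free wall paced 2. Fibroblast markers also varied among the control arrays. Their summed signal (8 of 9 listed genes tested) was 11.66, 12.40 and 12.24 in free wall control arrays 1 to 3 and 11.61, 12.27 and 11.65 in septum control arrays 1 to 3. It was lowest in array 1 and highest in array 2 of both regions, whereas XDH fell from array 1 to array 3. The part of the fibroblast signal in the XDH result was not tested.

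The second question was the effect of pacing within a region. In the free wall XDH was 1.86-fold lower in paced than in control arrays (log2 -0.90, SE 0.89, n = 3 per group), and the groups overlapped. Of all probe sets 8.16% separated there in either direction, and 3.63% with paced higher, the direction opposite to that of XDH. Leaving out array 1 of the free wall control turned the difference to 0.20, and leaving out its array 3 made it -1.95. In the septum XDH was 1.68-fold higher in paced arrays (log2 0.75, SE 0.89), again with overlap, where 5.76% of probe sets separated with paced higher. It was 0.10 without septum control array 3, the low one. The free wall difference was about as large as its SE and the septum one smaller. The difference between both pacing effects was 1.64 (SE 1.25), from 0.55 to 2.70 over the same omissions in the free wall control group. Treatment taken over both regions left the means close together: 6.5 ± 1.84 (SD, n = 6) in control and 6.42 ± 1.99 (SD, n = 6) in paced arrays.

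No other tested probe set varied as much. The SD of XDH over the 12 arrays was 1.83, against a median of 0.21 over the 20669 tested (0 above XDH), and its range of 4.94 on the log2 scale corresponds to 30.7-fold. The pooled SD within groups was 1.31, against a median of 0.20, and 17 probe sets had a larger one. XDH therefore differed widely both between regions and among arrays of a group. The choice of XDH by its own values bears on these ranks as well.

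The genes whose values followed XDH over the arrays were sought among 10007 other named genes by Pearson's correlation of log2 values (genes with only a LOC number were counted but not ranked). These correlations describe 12 arrays that may share animals, and arrays of both regions are in them, so that any gene higher in the septum gains by it. Values within the 6 free wall and within the 6 septum arrays therefore stand beside them. The genes were picked over these same arrays, so the values within a region are no separate check. In all, 13 genes had r of 0.9 or more and 0 had r of -0.9 or less, and the median over the genes was 0.03. The 10 highest were PDE4B, GATA6, PRLR, MAPKAPK3, LITAF, PLAGL1, DUSP27, USP28, SOCS2 and RILP. The tenth and the eleventh, MYOM2, a sarcomere M-band protein, had r of 0.915 and 0.913, so the edge of this list is arbitrary.

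PDE4B, a phosphodiesterase that breaks down cyclic AMP, had the highest Pearson's r with XDH; by Spearman's rho KAT7, a histone acetyltransferase, came first, and 1 of the 10 genes stayed among the 10 highest. PDE4B read 9.74, 9.16 and 8.60 in free wall control, 8.86, 9.22 and 9.09 in free wall paced, 9.94, 9.85 and 9.30 in septum control, and 9.97, 9.99 and 10.13 in septum paced arrays 1 to 3. Its r with XDH was 0.98 over 12 arrays (Spearman's rho 0.88), 0.96 within the free wall and 0.94 within the septum (6 arrays each). It was 0.96 without the 2 arrays farthest from the XDH median, free wall control 3 and free wall paced 1. Deviations from the group means, which hold no difference between groups, gave r of 0.97. The slope was 0.27, so that PDE4B spanned 2.89-fold where XDH spanned 30.7-fold. The other members of the family did not follow XDH in this way, with r of 0.28 for PDE4A, -0.15 for PDE4C and 0.43 for PDE4D; they were looked at after PDE4B was seen.

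PRLR, the prolactin receptor, had the steepest slope of the 10, 0.59, and an 11.96-fold range. It read 6.26, 5.32 and 4.19 in free wall control, 3.93, 5.61 and 5.39 in free wall paced, 6.64, 6.63 and 6.53 in septum control, and 7.26, 7.02 and 7.51 in septum paced arrays. All 6 septum arrays lay above all 6 free wall arrays. Its r was 0.94 over 12 arrays, 0.91 within the free wall and 0.59 within the septum, where the 3 control values of PRLR were nearly equal while those of XDH fell from 8.42 to 6.12. SOCS2, a feedback inhibitor induced by growth hormone and prolactin through STAT5, had an r of 0.92 (0.87 in free wall, 0.79 in septum). It read between 4.55 and 5.32 in the free wall and between 5.38 and 6.2 in the septum, again without overlap. Both genes were picked by r with XDH, itself higher in the septum, so these separations follow in part from the choice. The share of all probe sets that separate 6 arrays against 6 was not counted. With 3 against 3, septum higher, it was 7.33% in control and 6.44% in paced pigs.

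GATA6, a transcription factor of heart development, had an r of 0.94 and read 9.31 to 9.86 in the free wall and 9.86 to 10.34 in the septum. MAPKAPK3, a kinase activated by p38, had an r of 0.93 and LITAF, a protein of the endosomal membrane, one of 0.92. The transcription factor PLAGL1, the dual-specificity phosphatase family member DUSP27, the deubiquitinase USP28 and RILP, an effector of the lysosomal GTPase RAB7, had r between 0.91 and 0.92. In the free wall r lay between 0.82 and 0.97 for all 10 genes. In the septum it lay between 0.29 (DUSP27) and 0.94 (PDE4B). These genes spanned less than XDH: apart from PRLR, their ranges over the arrays lay between 1.4-fold (USP28) and 3.14-fold (SOCS2).

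**Figure D2:**
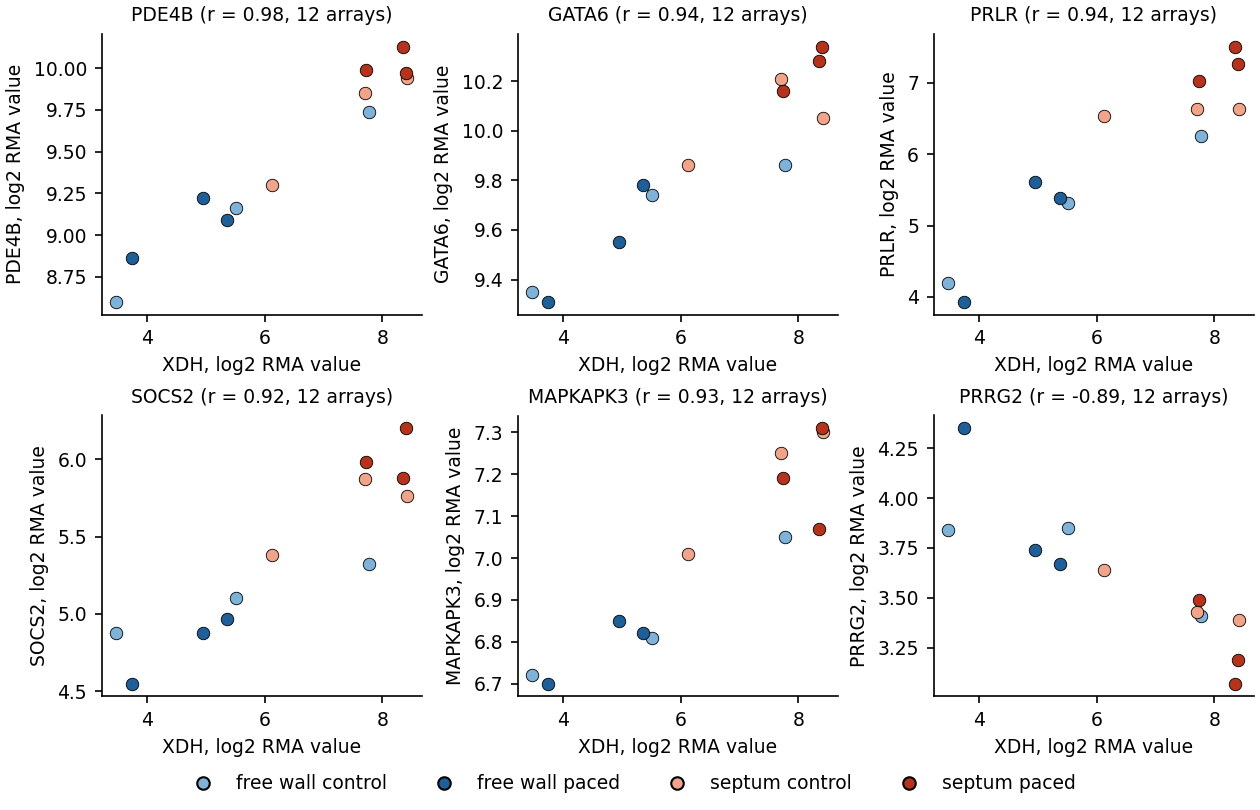
Log2 RMA values of PDE4B, GATA6, PRLR, SOCS2, MAPKAPK3 and PRRG2 (vertical axes) against XDH (horizontal axes) in the 12 arrays, coloured by group; each panel has its own vertical scale. The first 5 genes rise with XDH (r = 0.92 to 0.98) and PRRG2 falls (r = -0.89), with free wall control array 1 lying near the septum arrays.

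At the other end, the 5 lowest correlations belonged to PRRG2, a vitamin K-dependent membrane protein (-0.89), SCRN3 (-0.87), the nuclear phosphoprotein ANP32A (-0.87), CRIM1, which binds bone morphogenetic proteins (-0.87), and METTL25 (-0.86). PRRG2 had a range of 2.43-fold, from 3.07 in septum paced array 3 to 4.35 in free wall paced array 1, the lower end of which lies near the dim limit. The ranges of the other 4 genes lay between 1.29-fold and 1.73-fold. Within the septum r ranged from -0.92 (METTL25) to -0.35 (CRIM1), and within the free wall from -0.9 (ANP32A) to -0.67 (METTL25).

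**Figure D3:**
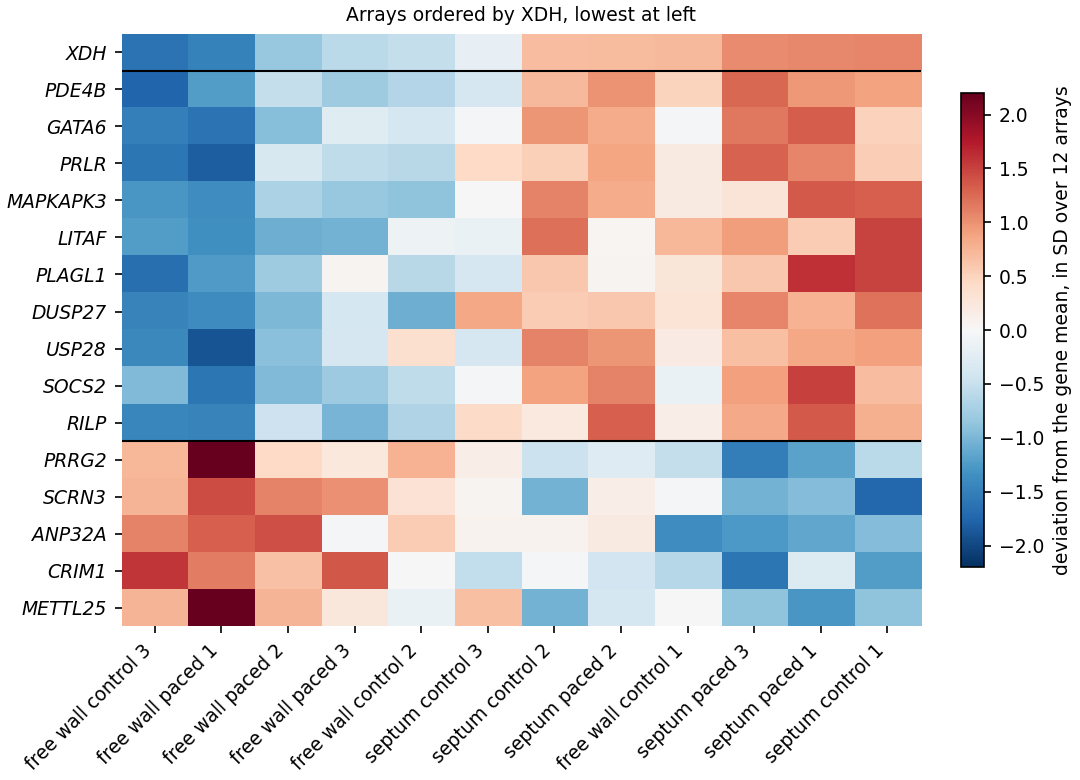
Deviation of each gene from its own mean, in SD over the 12 arrays (colour scale), for XDH, the 10 genes with the highest and the 5 with the lowest correlation with it; columns are arrays in ascending order of XDH. The 5 lowest XDH arrays are all free wall, and free wall control array 1 (7.77) is placed among septum arrays.

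Ranking the genes by deviations from the group means, with the difference between regions and treatments taken out, left PDE4B at the head and changed most of the others. The 5 highest were PDE4B (0.97), DCAF6 (0.94), the lysine methyltransferase SMYD2 (0.94), LITAF (0.93) and TARSL2 (0.93). SMYD2 read 8.74, 8.43 and 7.74 in free wall control and 8.8, 8.53 and 8.13 in septum control arrays 1 to 3, the same order as XDH in both regions. DCAF6, a nuclear receptor cofactor also called NRIP, had r of only 0.47 over the 12 arrays themselves: its group means lay between 9.9 and 10.02. TARSL2, a threonyl-tRNA synthetase, stood at 0.67. Of the 10 genes with the highest r over the arrays, 2 were among the 10 highest by deviations. The balance of signs also turned: by deviations 7 genes had r of 0.9 or more and 17 had r of -0.9 or less, against 13 and 0 over the arrays. XDH deviated most within free wall control (SD 2.15) and septum control (SD 1.18), against 0.84 in free wall paced and 0.37 in septum paced. The r of deviations therefore rest mainly on the control arrays. Array 1 of both control groups stood apart in the second principal component (27.2 and 24.3).

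Genes around XDH in metabolism did not show a regional difference that passed the test. In 6 lists of purine breakdown, purine salvage and synthesis, purine and urate transport with adenosine signalling, molybdenum cofactor and molybdenum enzymes, oxidant-producing enzymes and antioxidant enzymes, 122 genes besides XDH were matched on the array and 105 had a signal high enough to be tested. Over both treatments limma called 0 of 105 at an adjusted p under 0.05, against 0.00968% of all probe sets tested, and 7 had an unadjusted p under 0.05, as had 7.83% of all. In control pigs it called 0 of 105 (0% of all probe sets; 1 at the unadjusted level, against 3.67% of all), and in paced pigs 0 of 105 (0% of all; 3 unadjusted, against 6.73%). For pacing the counts were 0 of 105 in the free wall (0.00484% of all; 7 unadjusted, against 4.56%), 0 in the septum (0.00968% of all; 4 unadjusted, against 4.66%) and 0 for the difference of effects (0% of all; 3 unadjusted, against 2.75%). With backgrounds this low the counts say little about the lists.

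**Figure D4:**
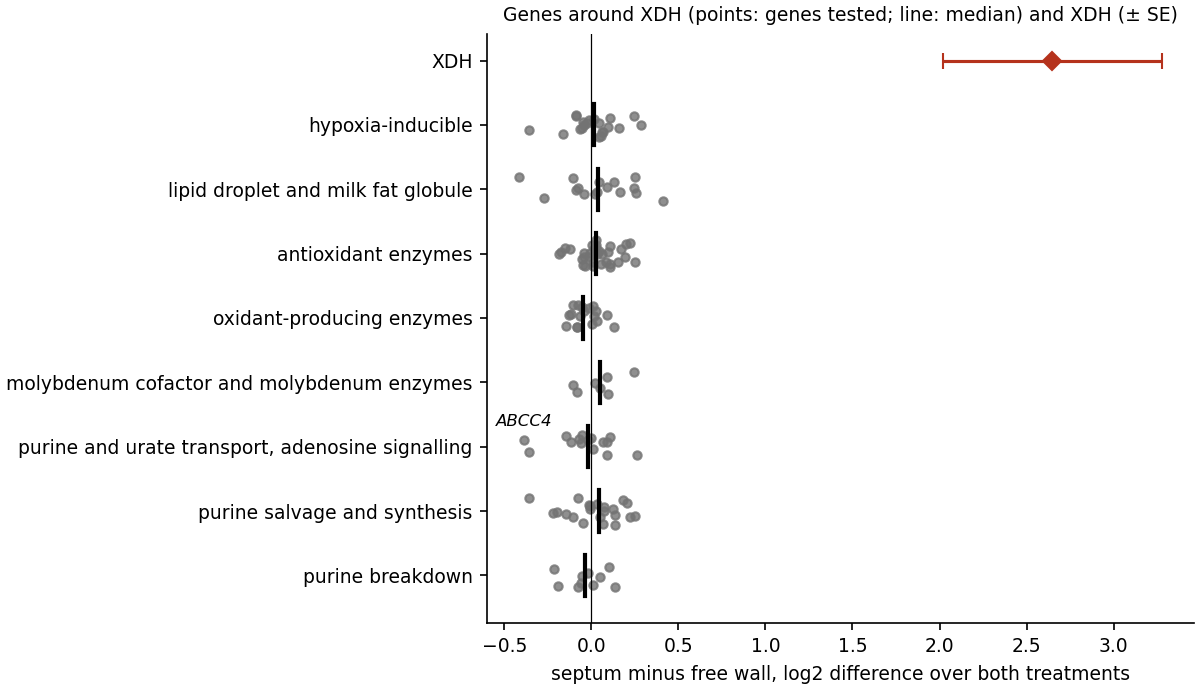
Septum minus free wall log2 difference over both treatments (horizontal axis) for the tested genes of 8 lists (points, with a line at the list median) and for XDH (diamond, ± SE). The list medians lie between -0.05 and 0.05, and XDH stands at 2.65.

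The tested genes of purine breakdown differed little between the regions. Their list is not limited to enzymes that feed purines to xanthine dehydrogenase, as it also holds URAD, ALLC and DNASE1L3. The group means of URAD (3.14 to 3.36) and ALLC (3.27 to 3.43) lay near the filter limit of 3.0. Of 10 tested genes of purine breakdown 4 were above and 6 below 0, with a median of -0.04, where 53.5% of all probe sets were above 0 and their median was 0.01. PNP, which releases hypoxanthine and guanine from nucleosides, stood at -0.08 (SE 0.11) and NT5E, the surface enzyme that makes adenosine from AMP, at -0.06 (SE 0.23). The muscle AMP deaminase AMPD1 and the guanine deaminase GDA were too dim to be tested. LACC1, an enzyme of macrophage purine metabolism, stood at -0.21 (SE 0.16) and the cytosolic nucleotidase NT5C2 at 0.14 (SE 0.16). ADA, AMPD3 and UOX, the uricase that breaks urate down, were not analysed here, nor were the paralog AOX1, the cofactor sulfurase MOCOS or the extracellular SOD3.

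Salvage and synthesis split 12 above to 10 below 0 over 22 genes, with a median of 0.04. HPRT1, which returns hypoxanthine to the nucleotide pool and so competes with XDH for it, stood at -0.14 (SE 0.12), and APRT, which does the same for adenine, at 0.07 (SE 0.10). PPAT, which catalyses the committed step of new purine synthesis, stood at -0.36 (SE 0.13, limma adjusted p = 0.546). GMPR, which turns GMP back into IMP, stood at 0.18 (SE 0.08, adjusted p = 0.613), and its r with XDH, 0.79, was the highest of the 105 genes. The values of GMPR lay between 7.84 and 8.19 in the free wall and between 8.10 and 8.36 in the septum. PRPSAP1, a regulatory partner of phosphoribosyl pyrophosphate synthetase, stood at 0.25 (SE 0.11).

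Both exporters that carry urate out of cells were lower in the septum on average, without passing. ABCC4, which also exports cyclic nucleotides, read 6.19, 6.22 and 6.10 in free wall control, 6.75, 6.79 and 6.70 in free wall paced, 6.06, 6.11 and 6.12 in septum control and 5.95, 6.25 and 5.95 in septum paced arrays. The free wall paced arrays were the high ones and overlapped with no other group. In the free wall 3.63% of all probe sets separated with paced higher. Between the regions of paced pigs 9.91% separated in either direction. The share that separates 1 group from all others was not counted. ABCC4 was named for its small p over both treatments, so its separation follows in part from that choice. In paced pigs the septum was 1.62-fold lower (log2 -0.70, SE 0.11, limma adjusted p = 0.142), and in control pigs the difference was -0.07 (SE 0.11). The adjusted p in paced pigs ranged from 0.047, without septum paced array 2 (log2 -0.80), to 0.751 in a fit of only the paced arrays, and that array's absence gave the single call among the 105 genes under any alternative. Pacing in the free wall gave 0.58 (SE 0.11, adjusted p = 0.455). ABCG2, the main urate exporter of several tissues, stood at -0.36 (SE 0.17, adjusted p = 0.643) over both treatments and ran against XDH, with r of -0.71 over 12 arrays (-0.69 in free wall, -0.56 in septum). It was lowest in septum control array 1, at 5.84, where XDH was highest. The organic anion transporter SLC22A7 stood at 0.27 (SE 0.12) and the adenosine receptor ADORA1 at -0.12 (SE 0.10). In all, 6 of these 15 genes were above and 9 below 0.

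The list of molybdenum cofactor and molybdenum enzymes had a median of 0.05 over both treatments, with 5 of 7 genes above 0. It includes CYB5B, which neither loads nor holds the cofactor. The treatments differed in sign, with a median of -0.09 (2 of 7 above 0) in control and 0.14 (5 of 7) in paced pigs. All 7 were above 0 for the difference of pacing effects (median 0.23, against 0.01 and 51.5% above 0 over all probe sets), and 0 of 7 passed. Over both treatments MOCS1, of the first step of cofactor synthesis, stood at 0.25 (SE 0.15), SUOX, the sulfite oxidase, at 0.09 (SE 0.09), and gephyrin GPHN, of the last steps, at -0.08 (SE 0.06). Among other sources of oxidants 7 of 18 were above and 11 below 0, with a median of -0.05. NOX4, an NADPH oxidase that makes hydrogen peroxide, stood at -0.05 (SE 0.22). CYBB, the phagocyte oxidase subunit that the array lists as GP91-PHOX, stood at -0.06 (SE 0.14) over both treatments, made of -0.46 (SE 0.20) in control and 0.33 (SE 0.20) in paced pigs, and neither passed (limma adjusted p = 0.997 and 0.825). The paced value rested on free wall paced array 2, the library that stood apart, at 4.24 against 5.11 and 5.16 in arrays 1 and 3; without it the difference was 0.03. PTGS2, the inducible cyclooxygenase, stood at -0.12 (SE 0.11) and had an r of -0.68 with XDH.

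Of 33 antioxidant genes 22 were above and 11 below 0, with a median of 0.03. The mitochondrial thioredoxin TXN2 stood at 0.20 (SE 0.09, limma adjusted p = 0.613) and the peroxiredoxin PRDX4 at 0.22 (SE 0.10, adjusted p = 0.627). Catalase, CAT, stood at 0.01 (SE 0.07), and its sign turned with the scaling of the arrays. HMOX2, the constitutive haem oxygenase, had the highest r of this list, 0.68 (0.83 in free wall, 0.10 in septum).

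Lists of lipid droplet and milk fat globule genes and of hypoxia-inducible genes, where XDH has known ties, likewise gave 0 calls of 16 and 0 of 21 over both treatments, against 0.00968% of all probe sets, with 2 at an unadjusted p under 0.05 in each, against 7.83% of all. PNPLA2, the main triglyceride lipase, stood at 0.41 (SE 0.17, adjusted p = 0.6) and MFGE8, a protein of the milk fat globule, at 0.26 (SE 0.10, adjusted p = 0.586). LDHA, the lactate dehydrogenase of glycolysis, stood at -0.36 (SE 0.14, adjusted p = 0.56) and had the lowest r with XDH of the listed genes, -0.78 (-0.84 in free wall, -0.38 in septum). HIF3A, an inhibitory member of the hypoxia-inducible factors, stood at 0.24 (SE 0.08, adjusted p = 0.499).

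Cell type markers were set beside XDH by the summed signal of each list. Vascular endothelial markers, of which 11 of 19 were tested, lay at 11.82 to 12.02 in free wall control, 11.86 to 12.1 in free wall paced, 11.86 to 11.89 in septum control and 11.97 to 12.08 in septum paced arrays, and their r with XDH was -0.07. CD36, a fatty acid transporter that cardiomyocytes and fat cells also make, was 68.0% to 80.2% of that sum. The other 10 lay at 9.71 to 10.22, 9.52 to 10.29, 9.82 to 10.21 and 10.03 to 10.42 in the same groups, all overlapping, with r of -0.03. With CD36 only the septum control and septum paced groups did not overlap. Over both treatments 9 of the 11 were above 0, with a median of 0.16, and VWF stood at 0.26 (SE 0.10), CLDN5 at 0.34 (SE 0.14) and ESAM at 0.32 (SE 0.14). None passed (0 of 11; 3 at an unadjusted p under 0.05, against 7.83% of all probe sets). Cardiomyocyte markers lay at 14.61 to 14.73 in the free wall and at 14.69 to 14.75 in the septum, the control groups not overlapping (r = 0.67, and 0.32 without the 2 farthest arrays), and the 7 genes ranged from r of -0.54 (PLN) over -0.02 (RYR2) and 0.06 (MYL3) to 0.79 (MYH7). Within the septum MYH7 had an r of -0.09. The summed signal of the 4 tested adipocyte markers had an r of 0.76, but LPL, the lipoprotein lipase that cardiomyocytes also make, was 92.0% to 95.8% of it (r = 0.75). The other 3 had an r of -0.20, and PLIN1, of fat cells, had -0.11. Fibroblast markers had an r of -0.47, smooth muscle and pericyte markers -0.30, conduction system markers -0.40, mast cell markers -0.30, endocardial and lymphatic markers -0.18 and lymphocyte markers -0.14. Macrophage markers stood at 0.33, and at 0.62 without the 2 farthest arrays. Of these 9 genes 8 were below 0 in control pigs (median -0.15) and 8 above 0 in paced pigs (median 0.22). All 9 were above 0 for the difference of pacing effects (median 0.25), where XDH stood at 1.64. None passed. Over all probe sets 52.7%, 51.6% and 51.5% were above 0 in these comparisons, the last with a median of 0.01. Free wall paced array 2, the library that stood apart, had a macrophage sum of 8.26, against 8.76 and 8.46 in arrays 1 and 3 of its group. Nerve and Schwann cell markers, nearly all NCAM1, stood at 0.25 and mesothelial markers at 0.16. The erythroid markers matched on the array were too dim to be tested. The part of any of these cell types in the XDH result was not tested.

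The genes tested near XDH on the chromosome, none of them directly beside it, did not share its pattern. Of the 5 nearest genes on the array on each side, SRD5A2 and the pseudogene LOC100514709 were too dim to be tested. The other 8 were MEMO1, DPY30, SPAST, GALNT14, LCLAT1, YPEL5, ALK and TOGARAM2. In RefSeq order they lay between 4 (MEMO1) and 20 (TOGARAM2) genes away from XDH. They had r between -0.35 (GALNT14) and 0.41 (YPEL5), and each spanned at most 2.01-fold over the 12 arrays.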

How the data were processed

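Total RNA was extracted with Trizol and labelled with biotin, per the labels' protocols. Expression Console 1.4 of Affymetrix produced the deposited log2 values by RMA, per the submitters' processing notes and the labels. RMA corrects background, normalises between arrays and summarises a probe set, which can narrow small differences. The build is not given in the sources used here. Of 27558 probe sets, 13323 had 1 distinct gene symbol, 357 several and 13878 none; a gene was read from its probe set of highest mean. The 25% with the lowest mean (under 3.0) were left out, and 20669 were tested.

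Group means were fitted over all 12 arrays with limma 3.58.1 in R 4.3.3 (8 residual and 3.68 prior degrees of freedom), two-sided, with Benjamini-Hochberg adjustment over all probe sets tested. The number of arrays limits the precision, and separate animals are not stated per array, so the spread behind the p-values may be technical in part. Same-numbered regions deviated together in control (correlations 0.32, 0.25, 0.24) but not in paced pigs (0.09, -0.17, -0.18), and the numbers come from the titles. A block for the number is an alternative, as are other filters, weights, priors, scalings, probe set choices and leaving out each array. The code was tested on simulated data.

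XDH and the gene lists were chosen with earlier results of these data known. Named genes were the 10 highest and 5 lowest by correlation with XDH, the 5 highest by deviations from group means, the neighbours on the array, a fixed set of purine and oxidant genes, and up to 4 genes per list with the smallest p over both treatments. Other genes, such as NT5C2, HMOX2, PTGS2, MYOM2, CISH and single cell type markers, were named after their values were seen.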

Additional observations from a re-analysis of the deposited data

How the results depend on the processing

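Among the 6 XDH differences 1 changed sign, pacing in the free wall without free wall control array 1. Leaving out 1 array gave 0.77 to 2.92 for the regions in control pigs, 3.0 to 3.81 in paced pigs, 2.12 to 3.19 over both treatments, -1.95 to 0.20 for pacing in the free wall, 0.10 to 1.25 in the septum and 0.55 to 2.70 for the difference of effects. Array weights gave 2.29 in control pigs against 1.83. In this balanced design a replicate block cannot move the XDH differences; as a fixed term it lowered the SE from 0.89 to 0.45 within a treatment and from 0.63 to 0.32 over both, and the count of related genes called was 0. Marker sums without their brightest gene, and CYBB without free wall paced array 2, were added after seeing the data.

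Of the 10 genes that followed XDH most closely, 1 stayed among the 10 highest by Spearman's rho, 2 without the 2 arrays farthest from the XDH median and 2 by deviations from the group means; leaving out 1 array kept 5 to 9. PDE4B had r of 0.96 or more in each of those settings except Spearman's rho (0.88). Related genes called in paced pigs between regions were 0 to 1 when 1 array was left out, and 0 elsewhere.

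All probe sets called over both treatments were 2, against 1 with the dimmer 50% left out, with quantile normalisation run again or with the replicate block as a fixed term, 4 with array weights and 4 with a trended robust prior, and 0 to 3 with 1 array left out. In paced pigs the count was 0, against 1 with the fixed replicate block and up to 7 without septum paced array 2. For pacing in the free wall it was 1, against 0 in a fit of only those arrays, 2 with array weights and 0 to 1 with 1 array left out. For pacing in the septum it was 2, against 1 in a fit of only those arrays and 1 to 4 with 1 array left out. Fits of only the groups compared were not run for both treatments or the difference of effects, which use all groups.

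Signs turned for CAT with arrays centred on their median (-0.02), and over left-out arrays for CAT (-0.02 to 0.02), NT5E (-0.22 to 0.09), CYBB (-0.21 to 0.02) and NOX4 (-0.26 to 0.10), all near 0. Arrays have no count depth; at the lowest XDH values the signal over background limits any fold.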

Other observations

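PRLR and SOCS2 stood among the 10 genes that followed XDH, so other genes of prolactin and growth hormone signalling were looked at after those values were seen, as a description without a test. CISH, a further STAT5 target and the 12th gene by correlation with XDH, had an r of 0.91 (0.79 in free wall, 0.88 in septum). It read 6.75, 6.77 and 5.34 in free wall control, 6.11, 6.29 and 6.52 in free wall paced, 7.33, 7.5 and 6.44 in septum control and 8.07, 7.39 and 7.59 in septum paced arrays. The low array of each control group was number 3, as for XDH. SH2B3, an adaptor that restrains JAK2, had an r of 0.85 with a range of 2.36-fold. The growth hormone receptor GHR did not follow (r = -0.12), nor did STAT5A (-0.18). JAK2, the kinase of both receptors, had an r of -0.74, with group means of 6.64 and 6.77 in the free wall against 6.34 and 6.41 in the septum. IGF1, a target of growth hormone in liver, had an r of -0.73. BCL6 had an r of 0.48. STAT5B, SOCS1, SOCS3 and PTPN2 were not analysed here.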
